A study of Mus musculus with 21 samples.

Results

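This section describes how gene expression in miniSOX cells differed between 2i medium and serum with LIF. The comparison takes all 4 miniSOX libraries, 2 in 2i and 2 in serum with LIF (SL), of the 21 libraries of the study, and covers all 16443 genes of the deposited table. The cells are 2TS22C, a mouse embryonic stem cell line whose own Sox2 was silenced and which was treated with doxycycline and rescued by a lentiviral factor. The labels give that factor as miniSOX, by name only. The other lines used for comparison are untransduced 2TS22C cells (NTC; labelled wild type, with no doxycycline listed), and cells rescued with SOX2 or with SOX17FNV (FNV), both with Sox2 silenced and under doxycycline. Each was profiled in 2i and in SL, with 3, 4 and 4 libraries in 2i and 2 in SL. Medium is given by the sample titles, and the design text speaks of serum with LIF and of the same with 2i, so serum may be present in both. No label states how many clones a line holds, how the rescue factor is driven, or how long cells had been in each medium.

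Mouse embryonic stem cells in serum and LIF are a mixture that spans naive cells, which resemble the epiblast before implantation, and cells that have begun to move toward the formative and primed states after implantation. The 2i inhibitors block MEK, the kinase that activates ERK downstream of FGF4, and GSK3, the kinase that marks beta-catenin for destruction. Blocking MEK removes the signal that pushes cells out of the naive state, and blocking GSK3 stabilises beta-catenin, which relieves TCF3 repression of naive genes and switches on Wnt targets. Cells kept in 2i are known for even, high levels of naive factors and for low levels of the de novo DNA methyltransferases.

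Poly(A) RNA was profiled, and the deposited values had been normalized to 1 common distribution: every library totals between 14044316 and 14047262 with a median of 214, so that read depth is unknown and a value is close to a rank. Among genes with values from 500 to 1500 the log2 difference between replicates had an SD of 0.117 in miniSOX cells in 2i and 0.104 in SL. All 4 miniSOX libraries belong to the second of 2 deposited sets. No label says whether their replicates 1 and 2 are separate cultures. The other lines' 2i libraries of that set are titled biol_rep2 or biol_rep3, with p21 or p31 in their column names. A p-value here sets a difference against a spread shared by all 21 libraries, which mixes these kinds, and that spread may be technical. A change is the log2 difference of value + 1 in 2i minus SL with its SE from limma, a gene passed at a Benjamini-Hochberg adjusted p under 0.05 over all 16443 genes, and every adjusted p below comes from that limma fit. Changes of low genes are understated on this scale, and where both libraries of a medium list a gene at 0 no fold is given.

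Sox2 (ENSMUSG00000074637, chr3:34650405-34652461, GRCm38), the silenced gene, stood at 47 and 60 in 2i, against 48 and 55 in SL. The media overlapped, and the difference did not pass (adjusted p = 0.963). For comparison, untransduced cells held 1310, 1362 and 2697 in 2i, against 533 and 843 in SL. Sox17 (ENSMUSG00000025902, chr1:4490931-4497354), the endoderm factor from which SOX17FNV takes its name, stood at 1813 and 1953 in 2i, against 4179 and 4138 in SL. It was lower in both 2i libraries (log2 change -1.14 ± 0.38, adjusted p = 0.0324). That call was lost when any 1 of the 4 libraries was left out (adjusted p from 0.0974 to 0.129), while the change stayed between -1.20 and -1.09. In NTC and SOX2 libraries Sox17 was listed between 0 and 6. In FNV cells its log2 change in 2i against SL was also negative, at -2.56. Reads of a rescue factor and of the endogenous gene are not separated in the table, and what the miniSOX libraries count at Sox17 is not stated.

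Of 16443 genes, 5495 changed between the media in miniSOX cells (33.4%). Of these 2793 (17.0% of all genes) were higher in 2i and 2702 (16.4%) were lower, and 1532 higher (9.32%) and 1293 lower genes (7.86%) differed by at least 2-fold. By at least 16-fold, 157 genes were higher and 240 lower. The median log2 change over all genes was -0.02. Leaving out any 1 miniSOX library left between 3686 and 3798 calls, and 2999 genes were called in all 4 such fits.

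**Figure D1:**
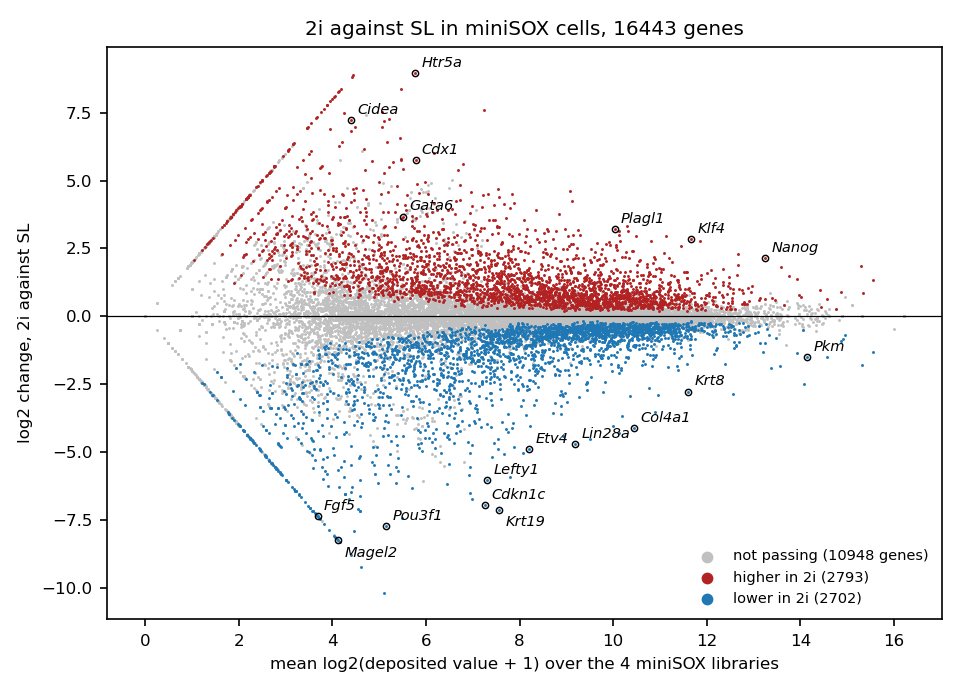
Each point is 1 of 16443 genes, placed by its mean log2(deposited value + 1) over the 4 miniSOX libraries (horizontal) and its log2 change in 2i against SL (vertical). Red and blue points are the 2793 genes higher and 2702 genes lower in 2i at an adjusted p under 0.05, grey points did not pass, and circles mark genes described in the text; the straight edges at the left are genes listed at 0 in both libraries of 1 medium.

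The largest rises fell on genes that were near or at 0 in SL. Htr5a, a serotonin receptor (ENSMUSG00000039106, chr5:27842149-27855088), was 1138 and 1298 in 2i, against 5 and 0 in SL (log2 change 8.96 ± 0.63, adjusted p = 1.15e-07). Cidea, a lipid droplet protein, was 265 and 254 against 0 and 2 (log2 change 7.23 ± 0.45). Msc, the helix-loop-helix repressor musculin, was 390 and 444 against 3 and 1 (log2 change 7.20 ± 0.74). These genes belong to no common pathway named here. Csf3r, the receptor of the cytokine G-CSF, was 191 and 149 against 0 and 1. The betaine-homocysteine methyltransferase gene Bhmt was 214 and 218 against 0 and 8. Another 4 genes were listed at 0 in both SL libraries: the sarcoglycan Sgcz (114 and 126 in 2i), the adhesion molecule Ntm (68 and 72), the T cell receptor chain Cd3g (72 and 64) and Phf11b (62 and 74). The lectin Clec4a1 was 305 and 355 against 14 and 0, and its call was lost without SL replicate 2 (adjusted p = 0.0849). The olfactory receptors Olfr1259 (277 and 229 against 0 and 1) and Olfr1233 (179 and 164 against 1 and 1) passed at adjusted p = 0.0401 and 0.0404 with SEs of 2.61 and 2.26, and neither was called when any miniSOX library was left out. Members of this large family can share reads, so their values are uncertain.

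The largest falls included regulators of the early post-implantation epiblast. Fgf5, a growth factor and the usual marker of that epiblast (ENSMUSG00000029337, chr5:98254184-98277030), was listed at 0 in both 2i libraries and at 187 and 145 in SL (adjusted p = 8.48e-07). Pou3f1, the POU factor OCT6 (ENSMUSG00000090125, chr4:124656807-124660655), was 1 and 2 in 2i, against 542 and 494 in SL (log2 change -7.73 ± 0.76, adjusted p = 2.83e-06). Both are formative genes. Krt19, a keratin of simple epithelia (ENSMUSG00000020911, chr11:100140810-100148665), was 15 and 15 against 2230 and 2208 (log2 change -7.12 ± 0.61). Cdkn1c, the imprinted cyclin-dependent kinase inhibitor p57 (ENSMUSG00000037664, chr7:143458339-143461050), was 9 and 18 against 1737 and 1687 (log2 change -6.96 ± 0.53). Slc16a3, the lactate exporter MCT4, was 16 and 8 against 1251 and 1370 (log2 change -6.73 ± 0.93). The rule that chose these genes required that the media not overlap, so their separation is no further result. Crmp1, a neuronal cytoskeletal regulator, was 0 and 1 against 333 and 351, Pcdh1, a protocadherin, 2 and 3 against 618 and 560, and the homeobox gene Irx3 1 and 1 against 205 and 219. The imprinted gene Magel2 (267 and 346 in SL), the Wnt regulator Tcim (146 and 136) and the protease inhibitor Serpinb9c (144 and 143) were listed at 0 in both 2i libraries. Prl2c3, of the prolactin family, was 1 and 1 against 316 and 262. Serpinb9c and Prl2c3 have near-identical relatives, so their values are uncertain.

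**Figure D2:**
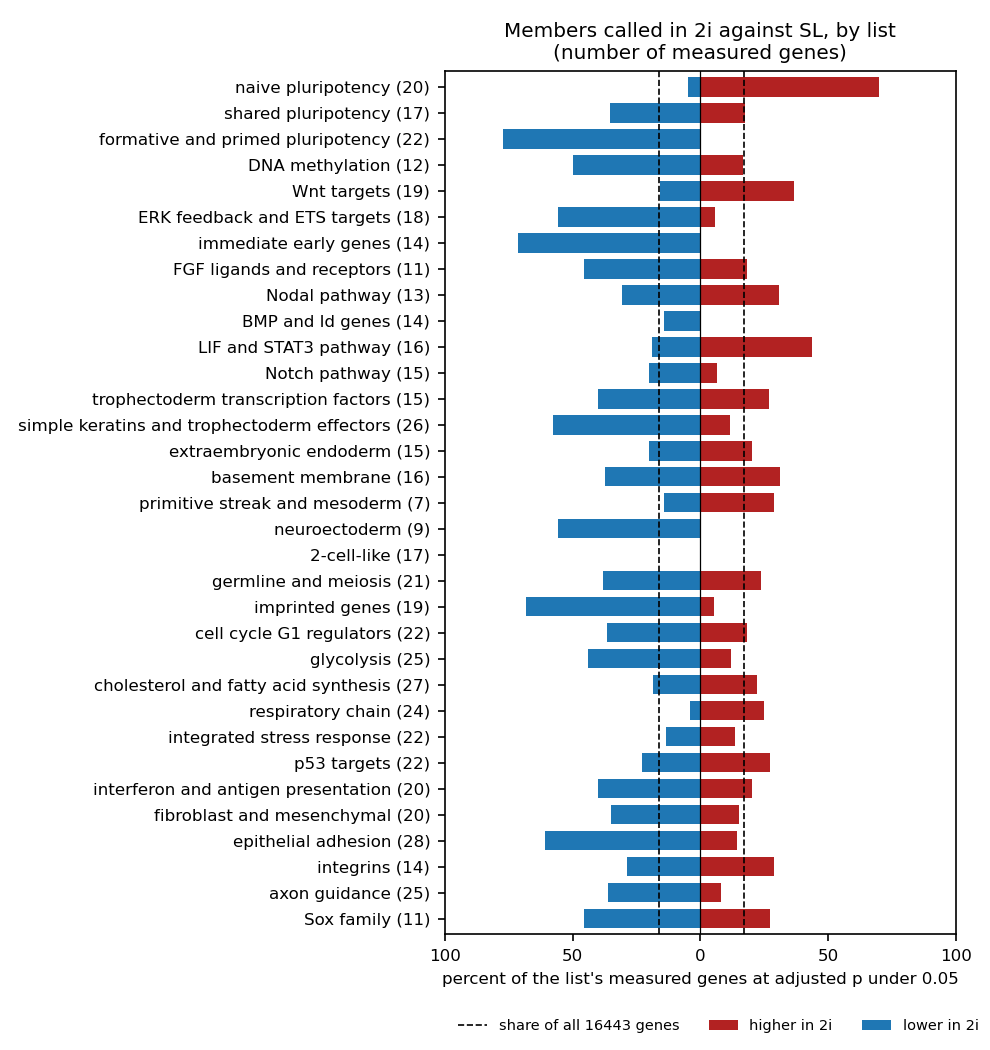
Bars show, for each of 33 gene lists, the percent of its measured genes that were called higher (red, right) or lower (blue, left) in 2i against SL in miniSOX cells, with the number of measured genes in brackets. Dashed lines mark the share of all 16443 genes called in that direction (17.0% higher and 16.4% lower). Naive pluripotency reaches 70.0% to the right, formative and primed pluripotency 77.3% to the left, and the 2-cell-like list has no call.

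The naive pluripotency network was higher in 2i. Of 20 measured naive genes 14 rose, 1 fell and 5 did not pass, with a median log2 change of 1.47 against -0.02 over all genes. Nanog, the homeobox factor at the centre of the network (ENSMUSG00000012396, chr6:122707489-122714633), was 19699 and 21188 in 2i, against 4733 and 4525 in SL (log2 change 2.14 ± 0.15, adjusted p = 1.26e-07). In these bulk libraries fewer cells with a transcript and less of it per cell cannot be told apart. Klf4, a LIF-responsive Krüppel-like factor (ENSMUSG00000003032, chr4:55527143-55532466), was 8736 in both 2i libraries and 1207 and 1212 in SL (log2 change 2.85 ± 0.26). Tbx3, a T-box factor, was 3159 and 2919 against 726 and 766 (log2 change 2.02 ± 0.12, adjusted p = 1.57e-08). Prdm14, a repressor of FGF signalling and of the de novo methyltransferases, was 327 and 322 against 58 and 66 (log2 change 2.37 ± 0.14). For each of these the media were far apart and the replicates close. Tfcp2l1, a factor downstream of LIF and of GSK3 inhibition, was 16427 and 12489 against 2989 and 2919, the widest replicate gap among them. Spic, an ETS factor (579 and 615 against 108 and 98), the nuclear receptor Nr5a2 (781 and 927 against 165 and 185) and the adhesion molecule Jam2 (2761 and 2837 against 547 and 539) rose by 2.52, 2.28 and 2.36 on the log2 scale. Dppa3, the maternal factor Stella, was 1531 and 1479 against 437 and 449 (log2 change 1.76 ± 0.31). Smaller rises were seen in Esrrb, an orphan nuclear receptor and a direct target of TCF3 repression (5475 and 5573 against 3265 and 3265, log2 change 0.76 ± 0.14), and in Klf2 (1663 and 1824 against 859 and 744, log2 change 1.12 ± 0.23). The nuclear receptor Nr0b1 stayed low (21 and 17 against 1 and 2), and its call was lost without SL replicate 1 (adjusted p = 0.0511).

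Not every naive gene differed. Zfp42, the REX1 reporter gene of the naive state, was 6371 and 6871 against 6129 and 5995 (adjusted p = 0.83). Klf5 was 1351 and 1385 against 1115 and 1129 (adjusted p = 0.399). The growth factor Fgf4 was 2240 in both 2i libraries and 2006 and 1989 in SL (adjusted p = 0.416). For Zfp42, Klf5 and Fgf4 each 2i library exceeded both SL libraries, but the difference did not pass the test. Over all genes, 72.3% had no overlap between media in 1 direction or the other. Manba, a lysosomal mannosidase, was the single member that fell (246 and 259 against 1028 and 973, log2 change -1.98 ± 0.15).

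Genes shared by naive and primed cells were called lower more often than all genes and higher about as often. Of 17 measured genes 3 rose (17.6%, against 17.0% of all genes) and 6 fell (35.3%, against 16.4%). Their median log2 change was -0.65. Pou5f1 (OCT4), which all pluripotent cells need, was 10050 in both 2i libraries and 8024 and 8269 in SL and did not pass (adjusted p = 0.223). Lin28a, an RNA-binding repressor of let-7 maturation, was 106 and 121 in 2i, against 2954 and 3035 in SL (log2 change -4.71 ± 0.40, adjusted p = 7.33e-07). Utf1, a chromatin factor, was 449 and 494 against 3619 and 3647 (log2 change -2.94 ± 0.27). Both genes were well expressed in SL. Dppa4 also fell (747 and 784 against 2254 and 2038, log2 change -1.48 ± 0.17). Threonine dehydrogenase, Tdh (3357 and 3265 against 876 and 867), alkaline phosphatase, Alpl (9368 and 9368 against 3536 and 3375), and the growth factor Gdf3 (917 and 1037 against 427 and 494) rose by 1.92, 1.44 and 1.08 on the log2 scale.

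Formative and primed genes were lower in 2i. Of 22 measured members 17 fell, none rose and 5 did not pass, and the median log2 change was -1.87. Besides Fgf5 and Pou3f1, Otx2, the homeobox factor that drives exit from the naive state, was 54 and 58 in 2i, against 290 and 332 in SL (log2 change -2.45 ± 0.31). Car4, a carbonic anhydrase, was 7 and 12 against 717 and 761 (log2 change -6.18 ± 0.45). Cldn6, a tight junction claudin, was 46 and 46 against 1525 and 1521 (log2 change -5.02 ± 0.63). Lin28b, the second LIN28 gene, was 198 and 168 against 665 and 672 (log2 change -1.87 ± 0.15). None of these overlapped between media, as was the case for 11888 of all 16443 genes (72.3%). The 5 members without a call were Foxd3 (78 and 111 against 235 and 191), Etv5 (3725 and 3725 against 3618 and 3439), Sfrp2, Cd24a and Fst. The call of Zic2 (15 and 23 against 78 and 64) was lost without 2i replicate 1 or SL replicate 1 (highest adjusted p = 0.0965). That of Tead2 (1742 and 2016 against 2761 and 2716) was lost without 2i replicate 1, SL replicate 1 or SL replicate 2 (highest adjusted p = 0.137).

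The de novo DNA methylation genes were among those that fell. Of 12 measured genes of DNA methylation 6 were lower and 2 higher, with a median log2 change of -0.48. The methyltransferases Dnmt3a (943 and 870 in 2i against 2837 and 2781 in SL) and Dnmt3b (1375 and 1415 against 4972 and 4972) fell (log2 changes -1.63 and -1.83). Their cofactor Dnmt3l was 836 and 850 against 3014 and 2837 (log2 change -1.79 ± 0.42, adjusted p = 0.00425). The maintenance methyltransferase Dnmt1 was 4581 and 4232 against 4409 and 4667 and did not pass (adjusted p = 0.768). Its partner Uhrf1 rose (5475 and 5573 against 3646 and 3725, log2 change 0.58 ± 0.08). Of the oxidases, Tet1 was 5395 and 5154 against 5265 and 5395 (adjusted p = 0.98) and Tet2 2209 and 1857 against 1647 and 1475 (adjusted p = 0.229). Tet3 was 111 and 86 against 336 and 290 (log2 change -1.67 ± 0.32), and the glycosylase Tdg, which removes TET products, was 700 and 704 against 1545 and 1405 (log2 change -1.07 ± 0.12). The 2 rises became 1 without 2i replicate 1, 2i replicate 2 or SL replicate 1.

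**Figure D3:**
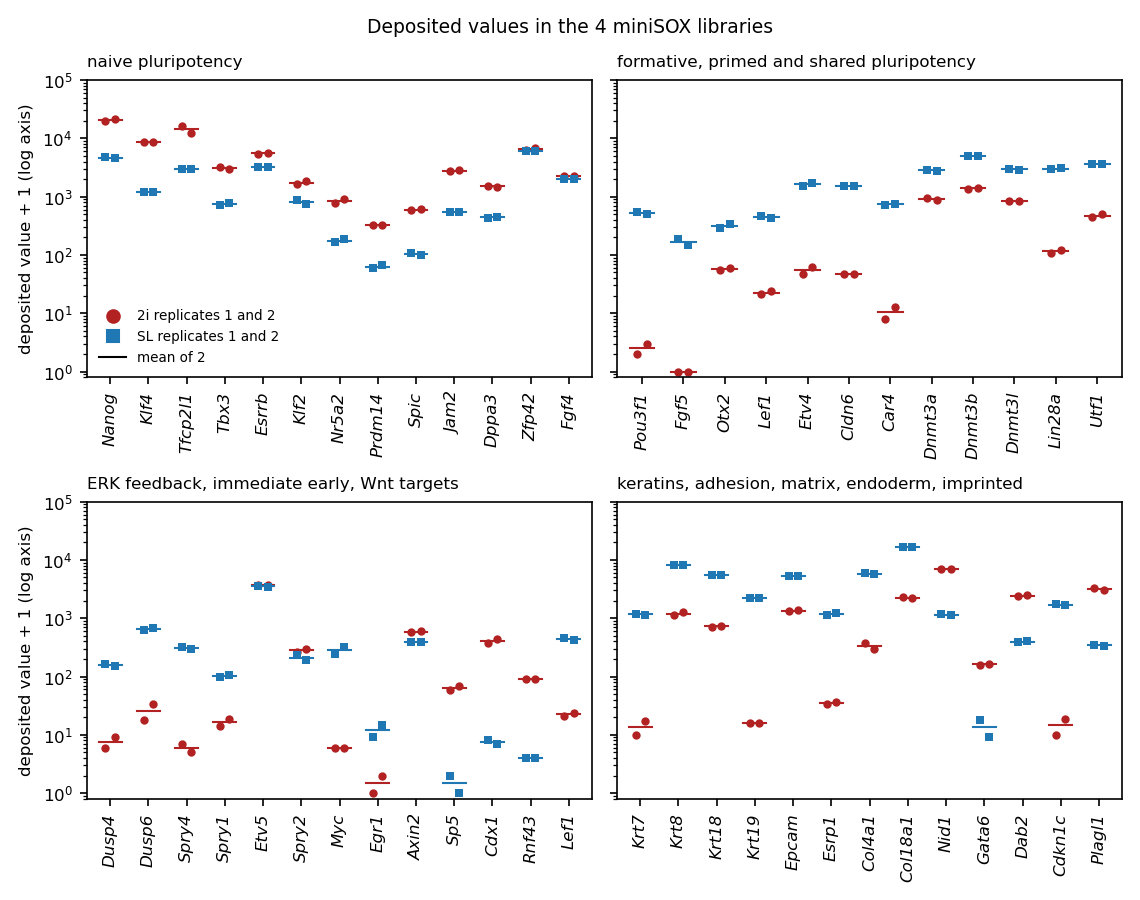
Deposited values + 1 on a log axis in each miniSOX library, 2i in red circles and SL in blue squares with replicates 1 and 2 side by side and the mean of the 2 as a line. Naive genes such as Nanog and Klf4 lie above their SL values, formative genes and ERK feedback genes such as Pou3f1 and Spry4 lie below, and Zfp42, Fgf4, Etv5 and Spry2 lie close together in both media.

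Feedback genes of the ERK pathway, which MEK drives, were lower in 2i. Of 18 measured ERK feedback and ETS genes 10 fell and 1 rose, with a median log2 change of -1.0. Spry4, an inhibitor that receptor signalling induces, was 6 and 4 in 2i, against 317 and 293 in SL (log2 change -5.69 ± 0.54, adjusted p = 1.86e-06). Dusp6, the cytoplasmic ERK phosphatase, was 17 and 33 against 637 and 667 (log2 change -4.72 ± 0.59). Its nuclear relatives Dusp4 (5 and 8 against 163 and 150) and Dusp5 (11 and 11 against 111 and 119) fell (log2 changes -4.42 and -3.27). The ETS factor Etv4 was 46 and 61 against 1521 and 1716 (log2 change -4.90 ± 0.61). Spry1 (13 and 18 against 98 and 105) and Ier3 (7 and 14 against 94 and 113) also fell. Members of the same families differed: Etv5 did not pass (adjusted p = 0.734), nor did Spry2 (267 and 294 against 230 and 191, adjusted p = 0.125) or Dusp7 (44 and 45 against 47 and 68, adjusted p = 0.319). The ephrin receptor Epha4 was the member that rose (2659 and 2565 against 949 and 861, log2 change 1.53 ± 0.27).

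Of 14 measured immediate early genes, which growth factor signals induce within minutes, 10 fell, none rose and 4 did not pass, with a median log2 change of -1.60. Myc was 5 and 5 in 2i, against 245 and 320 in SL (log2 change -5.55 ± 0.79, adjusted p = 8.11e-05). Mycn, its relative in stem cells, was 1178 and 1269 against 1186 and 1211 (adjusted p = 0.955). Junb (63 and 46 against 491 and 392) and Jun (14 and 24 against 105 and 86), partners in AP-1, fell (log2 changes -3.0 and -2.31). Klf6 was 566 and 505 against 1475 and 1428 (log2 change -1.44 ± 0.13). The serum-responsive genes Cyr61 (101 and 122 against 720 and 752) and Ctgf (171 and 203 against 475 and 529) fell (log2 changes -2.72 and -1.42). Egr1 was low in both media (0 and 1 against 8 and 14) and passed (adjusted p = 0.00234). Fos was also low, with its higher values in 2i (4 and 6 against 2 and 1), and did not pass (adjusted p = 0.202).

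Among 11 measured FGF ligands, receptors and adaptors 5 fell (45.5%, against 16.4% of all genes) and 2 rose (18.2%, against 17.0%). The receptor Fgfr2, through which FGF4 acts on extraembryonic lineages, was 39 and 49 in 2i, against 318 and 268 in SL (log2 change -2.71 ± 0.37). The adaptor Frs2 was 952 and 808 against 1380 and 1452 (log2 change -0.69 ± 0.14). Fgf15 was listed at 0 in both 2i libraries and at 29 and 16 in SL. Fgfr1, the main receptor of the epiblast, rose (4232 and 4409 against 2579 and 2659, log2 change 0.72 ± 0.19). It lost its call without 2i replicate 2 or SL replicate 1 (highest adjusted p = 0.0549). The 2 rises became 1 without 2i replicate 1, SL replicate 1 or SL replicate 2 and 0 without 2i replicate 2.

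Wnt targets, which GSK3 inhibition activates, were called higher more often than all genes and lower about as often. Of 19 measured genes 7 rose (36.8%, against 17.0% of all genes) and 3 fell (15.8%, against 16.4%). Their median log2 change was 0.68. Cdx1, a caudal homeobox gene and direct beta-catenin target, was 370 and 436 in 2i, against 7 and 6 in SL (log2 change 5.75 ± 0.62, adjusted p = 6.55e-06). Sp5, a zinc finger repressor induced by Wnt, was 58 and 69 against 1 and 0 (log2 change 5.51 ± 0.63). Rnf43, a ligase that removes Wnt receptors, was 88 and 88 against 3 and 3 (log2 change 4.48 ± 0.51). These targets were nearly silent in SL. Tnfrsf19 was 766 and 793 against 108 and 93 (log2 change 2.95 ± 0.41). The Wnt deacylase Notum was 10 and 11 in 2i and listed at 0 in both SL libraries. Axin2, the most used reporter gene of the pathway, did not pass in miniSOX cells (587 and 593 against 397 and 396, log2 change 0.57 ± 0.39, adjusted p = 0.297). Ccnd1, cyclin D1, was 1627 and 1521 against 1037 and 924 (adjusted p = 0.0207), a call lost when any miniSOX library was left out (adjusted p from 0.0509 to 0.122). Lef1, a TCF family factor that is also a primed gene, fell (20 and 23 against 464 and 422, log2 change -4.30 ± 0.46). Kremen1, a DKK coreceptor, was 251 and 198 against 459 and 403 (log2 change -0.94 ± 0.20).

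LIF signals through JAK1 and STAT3 in both media. Of 16 measured genes of that pathway 7 rose (43.8%, against 17.0% of all genes) and 3 fell (18.8%, against 16.4%). Their median log2 change was 0.58. Stat3 itself was 708 and 764 in 2i, against 347 and 341 in SL (log2 change 1.09 ± 0.17). The signalling receptor chain Il6st was 1098 and 1071 against 833 and 802 (log2 change 0.41 ± 0.07). The ligand-specific chain Lifr fell (188 and 165 against 470 and 472, log2 change -1.41 ± 0.17). The 2 chains moved in opposite directions. The LIF-responsive genes Pramel6 (2267 and 2395 against 361 and 369) and Pramel7 (378 and 387 against 138 and 124) rose by 2.67 and 1.54 on the log2 scale. The feedback inhibitor Socs2 was 105 and 98 against 352 and 394 (log2 change -1.87 ± 0.24). Its relative Socs3 was 612 and 534 against 215 and 215 (adjusted p = 0.044), and this call was lost when any miniSOX library was left out (adjusted p from 0.109 to 0.165).

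Of 13 measured Nodal pathway genes 4 rose and 4 fell (30.8% each way, against 17.0% and 16.4% of all genes). Lefty1, a secreted Nodal inhibitor, was 18 and 19 in 2i, against 1341 and 1215 in SL (log2 change -6.03 ± 0.97, adjusted p = 0.000246). Its neighbour in function, Lefty2, was 2761 and 2897 against 3209 and 3301 and did not pass (adjusted p = 0.929). Nodal was 712 and 702 against 796 and 859 (adjusted p = 0.652). The convertase Pcsk6, which cuts the Nodal precursor, rose (1251 and 1327 against 351 and 325, log2 change 1.93 ± 0.20), and the SMAD corepressor Skil fell (1094 and 1162 against 3237 and 3209, log2 change -1.51 ± 0.15). Without 2i replicate 1 or SL replicate 1 the rises were 2 in place of 4. Of 14 measured BMP genes 2 fell (14.3%) and none rose, where 16.4% of all genes were lower and 17.0% higher. Dusp9, an ERK phosphatase that BMP induces, was 5396 and 5476 against 21188 and 19699 (log2 change -1.91 ± 0.30). Id1 was 31 and 32 against 170 and 180 (adjusted p = 0.0338), a call lost when any miniSOX library was left out (adjusted p from 0.11 to 0.122), so that each such fit left 1 of the 2. Of 15 measured Notch genes 1 rose and 3 fell. Hes1, a helix-loop-helix repressor, was 499 and 654 against 82 and 108 (log2 change 2.59 ± 0.28). The ligand Jag2 was 177 and 155 against 642 and 634 (log2 change -1.94 ± 0.40).

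Transcription factors of the trophectoderm, the outer lineage of the blastocyst, did not move as a block. Of 15 measured 4 rose (26.7%, against 17.0% of all genes) and 6 fell (40.0%, against 16.4%). Cdx2 (106 and 86 in 2i against 0 and 1 in SL), Tfap2a (246 and 316 against 10 and 12) and Tead4 (1341 and 1211 against 239 and 349) rose by 6.09, 4.55 and 2.14 on the log2 scale. Eomes (10 and 12 against 302 and 296), Hand1 (1 and 4 against 127 and 150) and Arid3a (44 and 66 against 927 and 973) fell (log2 changes -4.65, -5.46 and -4.11). Elf5 was 2 and 2 against 60 and 50. Gata3 (21 and 24 against 40 and 33, adjusted p = 0.411) and Gata2 (352 and 377 against 782 and 859, adjusted p = 0.59) did not pass.

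Simple keratins and other genes of the differentiated trophectoderm were lower in 2i. Of 26 measured genes 15 fell, 3 rose and 8 did not pass, with a median log2 change of -1.36. Krt8 was 1119 and 1265 in 2i, against 8269 and 8024 in SL, and its partner Krt18 716 and 738 against 5475 and 5475 (log2 changes -2.77 ± 0.45 and -2.91 ± 0.46). Krt7 was 9 and 16 against 1201 and 1149 (log2 change -6.49 ± 0.54, adjusted p = 5.84e-07). The calcium-binding S100a6 (15 and 19 against 153 and 158) and S100a10 (439 and 467 against 1482 and 1640) fell (log2 changes -3.13 and -1.78). The placental gene Plac1 was 18 and 36 against 265 and 275 (log2 change -3.35 ± 0.41). The 3 genes that rose were Aqp3, a water and glycerol channel (3897 and 4032 against 387 and 396, log2 change 3.34 ± 0.20), the surface protein Ly6a (936 and 987 against 99 and 114) and Dppa1 (170 and 143 against 0 and 46).

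Cell adhesion genes of epithelia were mostly lower in 2i. Of 28 measured 17 fell and 4 rose, with a median log2 change of -0.77. Epcam, an adhesion molecule of epithelia and stem cells, was 1303 and 1363 in 2i, against 5266 and 5331 in SL (log2 change -1.99 ± 0.11, adjusted p = 1.03e-08). Esrp1, a splicing factor of epithelial cells, was 33 and 35 against 1142 and 1211 (log2 change -5.07 ± 0.34). The membrane protease Prss8 was 18 and 17 against 430 and 385 (log2 change -4.46 ± 0.34). Dsp, the desmosome linker, was 293 and 250 against 1775 and 1824 (log2 change -2.73 ± 0.24), and P-cadherin, Cdh3, 56 and 52 against 529 and 535 (log2 change -3.28 ± 0.53). Cdh1, E-cadherin, was 9368 and 9102 against 8734 and 7795 and did not pass (adjusted p = 0.524). Of the 4 rises, 2 were left without any 1 of the 4 libraries. Of 7 trophoblast markers, among them Krt7, Krt8 and Krt18 of the keratin list, 5 fell and 1 rose. Their summed value was 1983 and 2143 in 2i, against 15347 and 15028 in SL, and Cdx2 was listed at 0 in SL replicate 1. Of 6 stem cell markers (Pou5f1, Nanog, Zfp42, Esrrb, Sall4 and Dppa5a) 2 rose, none fell and 4 did not pass. Their summed value was 62444 and 63268 against 40322 and 40245. The part of any second cell type in these results was not tested.

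Among 15 measured genes of the extraembryonic endoderm 3 rose and 3 fell. Gata6, the factor that specifies primitive endoderm, was 157 and 165 in 2i, against 17 and 8 in SL (log2 change 3.67 ± 0.43, adjusted p = 1.56e-05). Dab2, an endocytic adaptor of that lineage, was 2384 and 2503 against 390 and 399 (log2 change 2.63 ± 0.29). Pdgfra, its receptor marker, was 59 and 44 against 61 and 66 and did not pass (adjusted p = 0.485). Gata4 and Sox7 were not among the genes of the deposited table. The summed value of 4 measured endoderm markers was 4413 and 4665 in 2i, against 4647 and 4611 in SL. The largest part was Dab2 in 2i and Sox17 in SL, so the near-equal sums hold opposite differences of these genes. The call for Sox17 (log2 change -1.14 ± 0.38, adjusted p = 0.0324) was lost when any miniSOX library was left out (adjusted p from 0.0974 to 0.129). Basement membrane genes diverged: of 16 measured, 5 rose and 6 fell. The collagen IV chains Col4a1 (379 and 297 against 5994 and 5667) and Col4a2 (333 and 325 against 4137 and 4178) fell (log2 changes -4.11 and -3.66). Col18a1 was 2295 and 2191 against 16427 and 16427 (log2 change -2.87 ± 0.32), and the laminin chain Lamb1 362 and 315 against 2295 and 2325 (log2 change -2.77 ± 0.25). The linker Nid1 rose (6869 and 6869 against 1162 and 1124, log2 change 2.59 ± 0.19). Other laminin chains stayed near their SL level: Lamc1 was 5667 and 5797 against 4454 and 4409 (adjusted p = 0.0591). The 5 rises became 3 without 2i replicate 1 or 2i replicate 2 and 2 without SL replicate 1.

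Of 20 measured fibroblast and mesenchymal genes 7 fell, 3 rose and 10 did not pass, with a median log2 change of -1.16. Col1a1 (13 and 18 in 2i against 221 and 325 in SL) and Col1a2 (4 and 3 against 175 and 192), the chains of collagen I, fell (log2 changes -4.04 and -5.36). The contractile genes Tagln (9 and 18 against 583 and 599) and Acta2 (34 and 10 against 373 and 442) fell (log2 changes -5.42 and -4.37). Vimentin, Vim, was 54 and 59 against 343 and 339 (log2 change -2.57 ± 0.33). Fibronectin, Fn1, made by stem cells too, rose (22912 and 22912 against 8466 and 8024, log2 change 1.47 ± 0.29), as did the repressor Zeb1 (343 and 351 against 79 and 83, log2 change 2.09 ± 0.16). Of 11 measured fibroblast markers 5 fell and 1 rose, and their summed value was 354 and 257 in 2i, against 1855 and 2017 in SL. Of them Fap was listed at 0 in both 2i libraries and SL replicate 2, Dcn in 2i replicate 2 and Lum in both SL libraries. Whether feeder or other cells have a part in this was not tested.

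Other lineage lists held few measured genes. For scale, 17.0% of all genes were higher and 16.4% lower. Of 9 neuroectoderm genes 5 fell and none rose. Tubb3, neuronal beta-tubulin, was 16 and 18 in 2i, against 901 and 772 in SL (log2 change -5.54 ± 0.42), and N-cadherin, Cdh2, 13 and 19 against 163 and 164 (log2 change -3.30 ± 0.39). Of 7 primitive streak genes 2 rose and 1, Eomes, fell. Gsc was 4 and 10 in 2i and listed at 0 in SL, and Kdr was 98 and 102 against 50 and 40, a call lost without 2i replicate 1, 2i replicate 2 or SL replicate 2 (highest adjusted p = 0.104). Of 11 measured Sox genes 3 rose and 5 fell. Sox11 (0 and 23 against 340 and 348) and Sox4 (47 and 35 against 477 and 420), of the SOXC group, fell (log2 changes -6.14 and -3.43). Sox3, the SOXB1 relative of Sox2, was 2 and 2 against 39 and 27. Sox13 (422 and 463 against 49 and 43) and Sox21 (44 and 44 against 3 and 2) rose by 3.24 and 3.70. Of 25 axon guidance genes, many of them active in epithelia too, 9 fell and 2 rose. Epha1 was 12 and 8 against 382 and 301 (log2 change -4.97 ± 0.38), and Plxnb1 39 and 29 against 924 and 830 (log2 change -4.66 ± 0.37).

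Imprinted genes, expressed from 1 parental copy under the control of DNA methylation, were mostly lower in 2i. Of 19 measured 13 fell, 1 rose and 5 did not pass, with a median log2 change of -1.36. Besides Cdkn1c, those that fell included Peg3, a zinc finger gene (602 and 510 in 2i against 6554 and 6370 in SL, log2 change -3.54 ± 0.33), and Phlda2, which restrains placental growth (8 and 13 against 294 and 284, log2 change -4.69 ± 0.67). The splicing gene Snrpn was 1578 and 1749 against 5797 and 5573 (log2 change -1.77 ± 0.22). The retrotransposon-derived Peg10 was 9718 and 9718 against 25019 and 25019 (log2 change -1.36 ± 0.24), and the hydrolase gene Mest 306 and 366 against 1582 and 1610 (log2 change -2.25 ± 0.50). Plagl1, a zinc finger factor (ENSMUSG00000019817, chr10:13060504-13131694), went the other way at 3325 and 3034 against 351 and 338 (log2 change 3.20 ± 0.30, adjusted p = 1.62e-06). The noncoding H19 was 7307 in both 2i libraries and 40741 in both SL libraries (adjusted p = 0.0387), and lost its call when any miniSOX library was left out (adjusted p = 0.123). Meg3 was 3034 and 2989 against 4524 and 4455 (adjusted p = 0.0523). Peg3 and Usp29 are neighbours in 1 imprinted cluster, and reads of overlapping genes cannot be told apart here.

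Germline genes, several of which DNA methylation silences, split: of 21 measured 5 rose (23.8%) and 8 fell (38.1%). The shares of all genes were 17.0% and 16.4%. Stra8, the retinoic acid target of meiotic entry, was 2548 and 2659 in 2i, against 428 and 458 in SL (log2 change 2.55 ± 0.25, adjusted p = 2.4e-06). Dazl, an RNA-binding protein of germ cells, was 3647 and 3863 against 1051 and 1119 (log2 change 1.79 ± 0.33), and the X-linked homeobox gene Rhox5 1715 and 1701 against 724 and 729 (log2 change 1.23 ± 0.27). Tex19.1 (539 and 540 against 1804 and 1857) and Prdm1 (104 and 79 against 311 and 248), the regulator of germ cell fate, fell (log2 changes -1.76 and -1.60). Without SL replicate 1 the rises were 3 in place of 5.

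Of 25 measured glycolytic genes 11 fell, 3 rose and 11 did not pass, with a median log2 change of -0.81. The glucose transporter Slc2a1 was 699 and 704 in 2i, against 4178 and 4524 in SL (log2 change -2.63 ± 0.42). Pkm, pyruvate kinase, was 10739 and 10739 against 30387 and 30387 (log2 change -1.50 ± 0.16, adjusted p = 7.54e-06). Phosphoglycerate kinase, Pgk1, was 2897 and 2897 against 10050 and 9718 (log2 change -1.77 ± 0.24), and enolase, Eno1, 3160 and 3209 against 7059 and 7059 (log2 change -1.15 ± 0.15). Pdk1, the kinase that holds pyruvate back from the mitochondrion, was 392 and 396 against 1347 and 1316 (log2 change -1.75 ± 0.19). Hexokinase 1, Hk1, rose (1479 and 1516 against 848 and 889, log2 change 0.79 ± 0.18), as did the low-level enolase Eno2 (24 and 37 against 4 and 3). Gapdh was 40741 and 76006 against 76006 and 76006 and did not pass (adjusted p = 0.261). Ldha was 4233 and 4411 against 9718 and 8736 (adjusted p = 0.0246), a call lost when any miniSOX library was left out (adjusted p from 0.0719 to 0.117). Respiratory chain genes moved little: of 24 measured 6 rose (25.0%, against 17.0% of all genes) and 1 fell (4.17%, against 16.4%). Their median log2 change was 0.16. Cox5a (3358 and 3514 against 2038 and 2092) and Ndufv1 (2283 and 2340 against 1616 and 1591) rose by 0.73 and 0.53 on the log2 scale. The 6 rises became 3 without 2i replicate 2 or SL replicate 1, and the 1 fall was lost without any 1 library.

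Of 22 measured regulators of the G1 phase 4 rose (18.2%, against 17.0% of all genes) and 8 fell (36.4%, against 16.4%). Ccne1, cyclin E1, was 715 and 782 in 2i, against 1701 and 1769 in SL (log2 change -1.21 ± 0.23). The inhibitor Cdkn1a (p21) rose (3056 and 3056 against 1002 and 1055, log2 change 1.57 ± 0.22), as did E2f1 (1446 and 1341 against 467 and 488, log2 change 1.54 ± 0.19). Cyclin D2, Ccnd2, was 15 and 10 against 39 and 42, a call that held only without 2i replicate 1 (highest adjusted p = 0.147), and Cdk4 did not pass (4087 and 4306 against 4732 and 4732, adjusted p = 0.227). The 8 falls became 4 without SL replicate 1 and 5 without SL replicate 2.

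The response of miniSOX cells was set beside those of NTC, SOX2 and FNV cells, each measured in its own libraries. Of the 2793 genes higher in miniSOX cells, 36.6% were also called higher in NTC cells, where 11.9% of all genes were called higher, 64.4% in SOX2 cells (22.3% of all genes) and 61.9% in FNV cells (20.3%). For the 2702 lower genes the shares were 38.5%, 62.0% and 60.5%, where 12.8%, 22.5% and 20.4% of all genes were lower. Taken from the other lists, the shared higher genes were 52.4% of those of NTC, 48.9% of SOX2 and 51.8% of FNV cells, and the shared lower genes 49.6%, 45.2% and 48.8%. In all, 24.6% of genes were called in NTC, 44.9% in SOX2 and 40.6% in FNV cells. The test of the difference itself called 2248 genes against NTC (13.7%; 7.71% with a higher and 5.96% with a lower response in miniSOX cells), 1963 against SOX2 (11.9%; 5.94% and 6.0%) and 1960 against FNV (11.9%; 5.73% and 6.19%). SL libraries of the other lines belong to the first deposited set only, so in SL the line and the set cannot be told apart except through the set term, which rests on 2i libraries. Without that term the counts were 1191, 875 and 1175, and with the other lines from the first set alone 4632, 4829 and 4446. Leaving out any 1 miniSOX library gave between 1272 and 1369 against NTC, 1012 and 1072 against SOX2 and 1135 and 1196 against FNV cells. The count against NTC was 1298 without NTC SL replicate 1, and that against SOX2 1208 without SOX2 SL replicate 2.

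**Figure D4:**
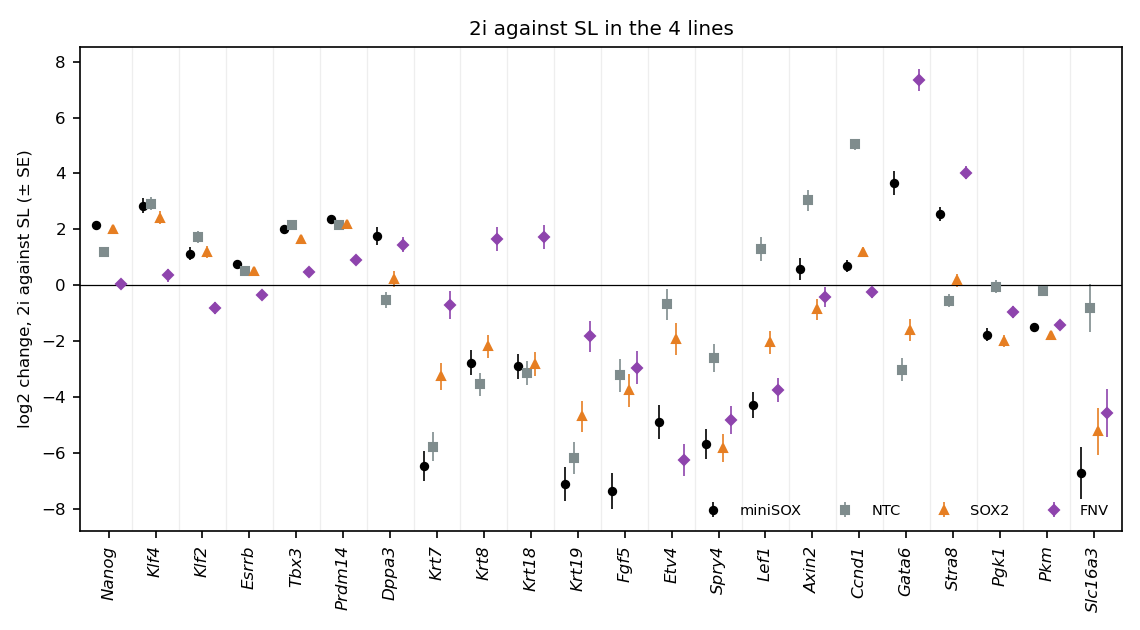
Log2 change in 2i against SL with its SE for 22 genes in miniSOX (black circles), NTC (grey squares), SOX2 (orange triangles) and FNV cells (purple diamonds). For Klf4, Klf2, Krt8 and Krt18 the FNV point lies above or below those of the other 3 lines, for Lef1, Pkm and Pgk1 the NTC point lies above the rest, and Gata6 spans from -3.03 in NTC to 7.34 in FNV cells.

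Naive genes had a larger response in miniSOX than in FNV cells. In FNV cells Nanog did not pass between media (log2 change 0.04), and the response of miniSOX cells was larger by 2.10 ± 0.21 (adjusted p = 3.26e-05). The differences for Klf4, Klf2, Tbx3, Prdm14, Jam2 and Esrrb were 2.49, 1.93, 1.55, 1.47, 1.97 and 1.11 on the log2 scale, each higher in miniSOX cells. Of the 20 naive genes 11 had a larger change in miniSOX than in FNV cells and none a smaller one by the test. Against NTC cells 4 were larger and 1 smaller, and likewise against SOX2 cells. Over all genes 5.73% had a higher and 6.19% a lower response than in FNV cells. The shares were 7.71% and 5.96% against NTC and 5.94% and 6.0% against SOX2 cells. Nanog (difference 0.98 ± 0.21) and Dppa3 (2.30 ± 0.42) were among those larger than in NTC cells, and Nr5a2 (2.07 ± 0.27) and Dppa3 (1.54 ± 0.42) among those larger than in SOX2 cells. The difference of Dppa3 from SOX2 cells held in 2 of 10 fits with a library left out. Without the set term neither it (adjusted p = 0.0525) nor that of Nr5a2 (adjusted p = 0.252) passed. Tdh, from the list shared by naive and primed cells, also had a larger response than in FNV cells (difference 1.84 ± 0.19).

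Keratins differed from FNV cells in the opposite sense. In FNV cells Krt8 and Krt18 rose by 1.66 and 1.73 on the log2 scale in 2i, and the difference of the miniSOX response was -4.43 ± 0.62 and -4.65 ± 0.63. For Krt7 and Krt19 it was -5.78 ± 0.74 and -5.29 ± 0.83. Of the 26 keratin and trophectoderm genes 17 had a lower response in miniSOX than in FNV cells and 11 lower than in SOX2 cells. None was lower and 3 were higher than in NTC cells. Of all genes 6.19% had a lower response than in FNV and 6.0% than in SOX2 cells. Against NTC cells 5.96% were lower and 7.71% higher. The smallest adjusted p against FNV cells fell on Tinagl1, a matrix protein (difference -7.12 ± 0.32, adjusted p = 1.18e-08): it was 647 and 667 in 2i, against 675 and 713 in SL in miniSOX cells, where it did not pass (adjusted p = 0.856). Porcn, the acyltransferase of Wnt ligands, followed with 4.59 ± 0.30. Vamp8, a vesicle fusion protein, Plaur, the urokinase receptor, Prss8 and Elf3, an epithelial ETS factor, differed by -2.46, -5.20, -5.68 and -2.13. Cdkn1c (-4.54 ± 0.72), Gata6 (-3.67 ± 0.59), Fgf5 (-4.42 ± 0.87) and Stra8 (-1.47 ± 0.34) also had lower responses than in FNV cells. Without the set term the Stra8 difference did not pass (adjusted p = 0.585).

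Against NTC cells, where 5.96% of all genes had a lower and 7.71% a higher response, the lists with 4 or more lower members were 7 of 22 formative and primed genes, 7 of 25 axon guidance genes, 6 of 19 imprinted genes, 5 of 21 germline genes, 4 of 9 neuroectoderm genes, 4 of 19 Wnt targets, 4 of 18 ERK feedback and ETS genes and 4 of 22 G1 regulators. Those with 4 or more higher members were the naive genes (4 of 20), extraembryonic endoderm (4 of 15), integrins (4 of 14) and the respiratory chain (4 of 24). Of the 25 glycolytic genes 3 had a lower and 2 a higher response. Ccnd1 rose by 5.04 on the log2 scale in NTC cells and the miniSOX response was lower by 4.36 ± 0.29 on that scale (difference -4.36, adjusted p = 6.96e-07). The responses of Axin2 and Lef1 were lower (differences -2.47 ± 0.54 and -5.61 ± 0.63), Lef1 having risen by 1.30 in NTC cells, and without the set term the Axin2 difference did not pass (adjusted p = 0.138). Tiam1, an activator of the GTPase RAC1, was 115 and 107 in 2i, against 622 and 629 in SL in miniSOX cells (difference -2.95 ± 0.18). Etv4 and Spry4 fell further in miniSOX cells (differences -4.22 ± 0.83 and -3.09 ± 0.74), as did Fgf5 (-4.14 ± 0.88). The Spry4 difference was lost without 2i replicate 2 of miniSOX. The glycolytic genes Pgk1, Pkm and Slc16a3 differed by -1.72 ± 0.32, -1.29 ± 0.22 and -5.91 ± 1.27. The adenylate kinase Ak4 (2.28 ± 0.18), the phosphatase Fig4 (1.99 ± 0.15), the muscle fusion peptide gene Mymx (3.23 ± 0.22) and Sgcz (6.92 ± 0.47) had higher responses. Magel2 and Tcim, which did not pass in NTC cells, differed by -9.20 ± 0.91 and -6.97 ± 0.59. Since Sgcz, Magel2, Tcim and Fgf5 are listed at 0 in both miniSOX libraries of 1 medium, the size of their differences depends on the pseudocount. Gata6 and Stra8 had higher responses than in NTC cells (6.70 ± 0.59 and 3.11 ± 0.34), and Gata6 also than in SOX2 cells (5.27 ± 0.59). The Col4a1 difference (-3.00 ± 0.80) held in 3 of 9 fits with a library left out and did not pass without the set term (adjusted p = 0.06).

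Against SOX2 cells the smallest adjusted p fell on Afap1, an actin-binding adaptor (difference -2.91 ± 0.17, adjusted p = 2.06e-07), and Mymx (3.72 ± 0.22). Tinagl1, the zinc transporter Slc30a2 and Aqp3 had lower responses (-4.78 ± 0.32, -2.95 ± 0.21 and -3.84 ± 0.28), and Porcn a higher one (3.89 ± 0.30). Of 14 immediate early genes 8 had a lower and 1 a higher response, where 6.0% of all genes were lower and 5.94% higher. The lower ones included Junb (-3.90 ± 0.67) and Cyr61 (-4.87 ± 0.74). Krt7 (-3.22 ± 0.74, called in 8 of 10 fits with a library left out) and Fgf5 (-3.60 ± 0.87, in 7 of 10) were lower too. Cdx2 responded more than in SOX2 cells (5.72 ± 1.52, adjusted p = 0.0246), a difference that held in 3 of 10 fits with a library left out and did not pass without the set term (4.05, adjusted p = 0.396).

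Some chromosome regions held many genes that were higher in 2i. Over 9487 genes whose mean in miniSOX cells reached 100, 19.6% were higher and 20.3% lower in 2i. Predicted genes, and genes with a 0 and no value from 1 to 20, were left out. In windows of 10 Mb that hold at least 15 such genes, 221 in all, the median of the window medians was -0.05. The 6 windows whose median exceeded 0.5 lay on chromosomes 14 and X. The lowest median, -0.50, was on chromosome 3 from 120000001 to 130000000, with 15 of 29 genes lower and 6 higher. Medians there were -0.12 in NTC, -0.19 in SOX2 and -0.23 in FNV cells. On chromosome 14 (GRCm38), from 40000001 to 50000000, 17 of 25 genes were higher (median log2 change 0.65), from 50000001 to 60000000 48 of 74 (0.79) and from 60000001 to 70000000 35 of 42 (0.78). On the X chromosome, 13 of 26 genes from 1 to 10000000 were higher (0.79), 11 of 15 from 20000001 to 30000000 (1.02) and 11 of 21 from 30000001 to 40000000 (0.60). Relative to the mean of the 4 libraries, the window of chromosome 14 from 60000001 stood at 0.42 and 0.39 in the 2i libraries and at -0.39 and -0.38 in the SL libraries, so both replicates of each medium showed it. In the same window the median change was 0.56 in NTC and 0.79 in SOX2 cells and 0.07 in FNV cells. Tdh lies in this window (chr14:63492347-63509092). The next windows by median were on chromosome 6 from 120000001 to 130000000, where 33 of 66 genes were higher (0.50), and on chromosome 14 from 70000001 to 80000000, with 18 of 38 (0.49). Nanog lies in that chromosome 6 window. There the median change was 0.43 in NTC, 0.52 in SOX2 and 0.13 in FNV cells. The neighbouring windows from 130000001 and 140000001 stood at 0.35 and 0.37 in miniSOX cells. This pattern, the window size and the limit of 0.5 were chosen after the values were seen, the difference between lines was not tested by window, and DNA was not measured here.

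**Figure D5:**
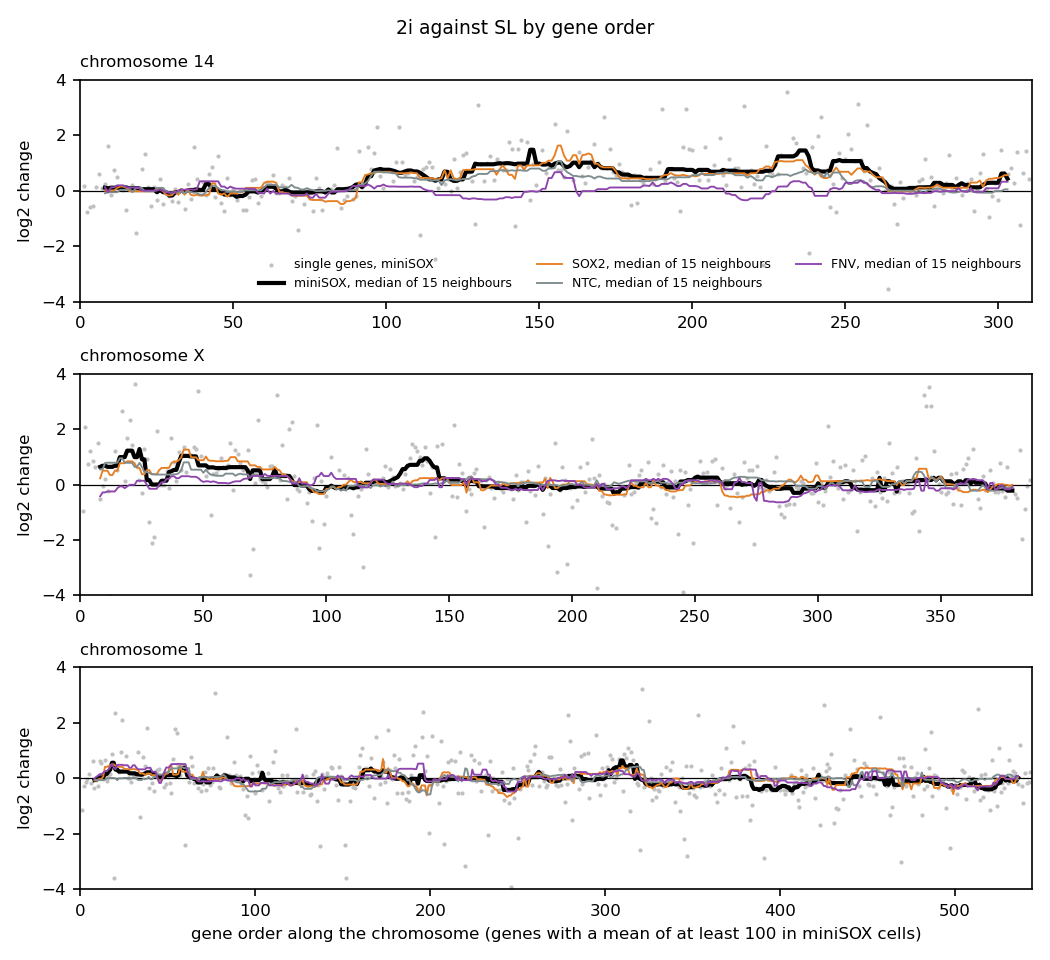
Log2 change in 2i against SL for genes in their order along chromosomes 14 (310 genes), X (386) and 1 (543), with grey points for single genes in miniSOX cells and lines for the median of 15 neighbouring genes in each line of cells. Points beyond 4 on the vertical axis (4, 6 and 5 genes) are not drawn. A stretch of chromosome 14 and the start of the X chromosome lie above 0 in miniSOX, NTC and SOX2 cells, and the lines on chromosome 1 stay near 0.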

How the data were processed

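RNA of 2TS22C cells was taken with Trizol and selected on oligo(dT), per the labels' protocols. RSEM and Bowtie2 2.0 with mm10 are named in the submitters' processing notes. The deposited table holds 16443 genes in 21 columns, each matched by name to a sample or group. The unit is named a score, because the authors deposited whole numbers already brought to 1 distribution: once sorted, no pair of libraries is more than 3 apart at any rank. The normalization software, annotation and strand use are not given in the sources used here. Because the values are not counts, limma 3.58.1 (R 4.3.3, trend and robust moderation, two-sided) was fitted to log2(value + 1) in 1 model over all 21 libraries, with a term for each group and for the deposited set and 12 residual degrees of freedom. No gene was filtered here, but the deposited genes appear to have been filtered beforehand, by a rule not given in the sources used here. The second highest value of every gene over the 21 libraries was at least 21. A gene could meet such a limit through high values in 1 medium alone. List genes that were not measured may have fallen below it. P-values were adjusted over 16443 genes, and figures were drawn with matplotlib 3.10.9.

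The genes named are Sox2, Sox17, the 12 largest rises and 12 largest falls (mean of at least 50, no overlap between media; predicted genes, and the 684 genes with a 0 and no value from 1 to 20, left out), up to 6 passing members of each of 33 lists, and the 6 smallest adjusted p of each difference between lines, with list members that passed it. Further members named were chosen after their values were seen. The comparison, lists and rules were chosen with earlier results of these data known. Of 685 list entries, 555 different genes were measured. Coordinates are from GENCODE M21. In simulated data with known changes, the test for 2i against SL in miniSOX cells recovered 17.9% of 67 genes set to 1.5-fold, 46.3% of 67 set to 2-fold, and, among 66 set to 4-fold, 84.8% (16443 genes in all). The simulated spread was taken about group means with no set term, and only these genes were changed. In the data 33.4% of genes passed, so these shares need not hold for the reported test. Single values of some list members are not reported here.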

Additional observations from a re-analysis of the deposited data

Results flagged for a closer look

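The 2i response of 2248 genes differed between miniSOX and NTC cells, that of 1963 between miniSOX and SOX2 cells and that of 1960 between miniSOX and FNV cells, by limma's test of the difference itself. The genes named in the text are given here as the log2 response of miniSOX minus that of the other line. Of these 57 differences, 57 were also called with the other lines' first deposited set alone, 51 with no set term and 51 in every fit with a library left out. They were named because they passed the test in these same libraries, so passing again in fits that share them is no independent support. Over all genes the counts were 1191, 875 and 1175 with no set term, and 4632, 4829 and 4446 with the first set alone. For Sgcz, Magel2, Tcim and Fgf5, listed at 0 in both miniSOX libraries of 1 medium, the size depends on the pseudocount.

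Against NTC cells, Sgcz (6.92), Gata6 (6.70), Mymx (3.23), Stra8 (3.11), Dppa3 (2.30), Ak4 (2.28), Fig4 (1.99) and Nanog (0.98) responded higher. Lower responses were those of Magel2 (-9.20), Tcim (-6.97), Slc16a3 (-5.91), Lef1 (-5.61), Ccnd1 (-4.36), Etv4 (-4.22), Fgf5 (-4.14), Spry4 (-3.09), Col4a1 (-3.00), Tiam1 (-2.95), Axin2 (-2.47), Pgk1 (-1.72) and Pkm (-1.29).

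Against SOX2 cells, Cdx2 (5.72), Gata6 (5.27), Porcn (3.89), Mymx (3.72), Nr5a2 (2.07) and Dppa3 (1.54) responded higher. Lower responses were those of Cyr61 (-4.87), Tinagl1 (-4.78), Junb (-3.90), Aqp3 (-3.84), Fgf5 (-3.60), Krt7 (-3.22), Slc30a2 (-2.95) and Afap1 (-2.91).

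Against FNV cells, Porcn (4.59), Klf4 (2.49), Nanog (2.10), Jam2 (1.97), Klf2 (1.93), Tdh (1.84), Tbx3 (1.55), Prdm14 (1.47) and Esrrb (1.11) responded higher. Lower responses were those of Tinagl1 (-7.12), Krt7 (-5.78), Prss8 (-5.68), Krt19 (-5.29), Plaur (-5.20), Krt18 (-4.65), Cdkn1c (-4.54), Krt8 (-4.43), Fgf5 (-4.42), Gata6 (-3.67), Vamp8 (-2.46), Elf3 (-2.13) and Stra8 (-1.47).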

How the results depend on the processing

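The count of 5495 genes stayed between 4582 and 5634 under another pseudocount (0.1 or 10), a filter at a mean of 50, a second quantile normalization, centring on the median log ratio, no trend or no step genes. It was 3920 with no set term, 4737 with second-set libraries alone, 7834 with the 4 miniSOX libraries alone and from 3686 to 3798 with 1 miniSOX library left out. The share of calls that were higher stayed between 48.2% and 53.6%. With 1 library left out, its lone partner is assumed to vary like the other groups.

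For the differences between lines, the counts with no set term were 1191 (NTC), 875 (SOX2) and 1175 (FNV), and with the other lines from the first set only 4632, 4829 and 4446. With 1 library of either line left out they ranged from 1272 to 2764, from 1012 to 2175 and from 1135 to 2611. The cause was not tested.

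Both media share replicate numbers 1 and 2, which no label ties to a shared culture or day, and the correlation of the numbered deviations was -0.002 over 12021 genes. With the replicate block the count was 5226 over all libraries and 6321 over the 4 miniSOX libraries, and 1807, 1501 and 1543 for the differences from NTC, SOX2 and FNV. Of 583 genes examined singly, the block lost 11 calls and added 1, leaving out a library lost from 57 to 64, and none changed direction. Read depth is unknown, so no counting error can be given.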

Other observations

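Genes of the 2-cell-like state, a rare state of stem cell cultures that resembles the embryo at genome activation, did not pass in either direction. By limma 0 of 17 measured genes were called, and 1 was called higher without SL replicate 2. Zscan4c was 255 and 287 in 2i, against 304 and 315 in SL, and Zscan4d 221 and 226 against 243 and 282. These are families of near-identical genes, so their single values are uncertain.

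Interferon and antigen presentation genes were split. Of 20 measured 8 fell and 4 rose, and without 2i replicate 2 the rises were 2. Ifitm1, a membrane protein that restricts viral entry, was 42 and 37 against 645 and 603 (log2 change -3.95 ± 0.21, adjusted p = 9.87e-09 by limma). Bst2, which tethers virions, was 145 and 212 against 1182 and 1575 (log2 change -2.95 ± 0.54), and Ifi27 rose (70 and 65 against 5 and 12, log2 change 2.95 ± 0.45). Of 14 measured integrins 4 rose and 4 fell (28.6% each way, against 17.0% and 16.4% of all genes). The vitronectin receptor chains diverged: Itgav was 1222 and 1356 against 585 and 543 (log2 change 1.19 ± 0.17) and Itgb3 46 and 46 against 194 and 206 (log2 change -2.10 ± 0.34). Itgb8 was listed at 0 in both 2i libraries and at 63 and 65 in SL.

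Sterol, stress and p53 genes changed by smaller amounts, and their counts depended on single libraries. Of the sterol genes 22.2% were higher and 18.5% lower, of the stress genes 13.6% each way, and of the p53 targets 27.3% and 22.7%. Over all genes the shares were 17.0% and 16.4%. Of 27 sterol and fatty acid synthesis genes 6 rose and 5 fell, and with any 1 miniSOX library left out 2 or 3 rose and 1 or 2 fell. The desaturase Scd1 was 2006 and 2137 against 1149 and 1049 (log2 change 0.91 ± 0.20). Of 22 genes of the integrated stress response 3 rose and 3 fell, and 1 rise was left without any 1 library, that of asparagine synthetase, Asns (9718 and 9718 against 4901 and 4972, log2 change 0.98 ± 0.12). Of 22 p53 targets 6 rose and 5 fell, and 2 or 3 rises and 3 falls were left without any 1 library. Pmaip1, the death gene NOXA, was 325 and 350 against 783 and 738 (log2 change -1.17 ± 0.20).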
